A study of Oryza sativa with 3 samples.

Results

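DREB1A, DREB1G, DREB2A and OsSAP17 are 4 rice genes of the cold and dehydration response. They were taken from the array annotation by symbol or gene-table synonym, which found 1 probe set for each gene, 4 of 57194 probe sets in all and 4 of the 17905 genes on the array. Leaf RNA was measured on 3 arrays: 1 for the OsEBS-transgenic line B10201, 1 for the OsEBS-transgenic line B10301 and 1 for control Guichao2, the wild type rice cultivar that is also the background of both lines. Every array held RNA from leaves of 10 untreated plants, 6 weeks old, kept at 28 °C in a greenhouse where 14 h light periods alternated with 10 h dark ones. Each line is a single transgenic line measured once, and the promoter of the OsEBS transgene is not given in the sources used here. With 1 array per line and 1 control array, no difference between arrays has a replicate check, and the number of arrays limits the precision of every value. The level of the transgene itself was not analysed here.

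DREB proteins are plant transcription factors with an AP2 DNA-binding domain that recognise the dehydration-responsive element, also called the C-repeat, in the promoters of stress genes. In the DREB1 branch, also known as CBF, transcription of the factor genes themselves is switched on within a short time of chilling, and in Arabidopsis also by touch and at certain times of day. The DREB2 branch is linked mainly to drought, salt and heat. SAP genes encode stress-associated proteins with zinc fingers of the A20 or AN1 type, several of which are induced by cold, salt, drought or wounding in rice.

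The 4 genes were chosen for their values in these arrays, so their levels are a description and carry no test. Values are log2 signals, and a signal below 5.50 (45.4 on the linear scale), the median of all signals, was treated as a floor: a fold against a value below it is a bound. DREB1G, DREB1A and OsSAP17 were far higher in B10201 leaves than on either other array, whereas DREB2A was not. None of the 4 probe sets lies in the stretches of displaced B10301 values described with the processing.

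DREB1G (LOC4330306, chromosome 2), a cold-induced factor of the DREB1 branch, had a log2 signal of 11.26 in B10201 leaves and 5.74 in B10301 leaves, against 5.86 in control Guichao2. On the linear scale these are signals of 2458 and 53.6, against 57.9. B10201 stood alone at the high end, and the other arrays lay close together just above the floor. The difference was 42.4-fold between B10201 and the control and 45.9-fold between B10201 and B10301, while B10301 differed from the control by a log2 value of -0.11. The B10301 and control signals are so close to the floor that they cannot be told from background, so these folds depend on where background lies. Ranked, with the floor applied, by the excess of B10201 over the higher of the other arrays, DREB1G was number 4 of the 14397 genes measured.

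DREB1A (LOC4347620, chromosome 9), the rice gene also known as CBF3, had a log2 signal of 9.71 in B10201 leaves and 5.18 in B10301 leaves, against 5.27 in control Guichao2. B10201 was again the single high array, and both other arrays were below the floor. B10201 leaves therefore had at least 18.5-fold more signal than B10301 leaves and at least 18.5-fold more than the control, since the floor stands in for both. Nothing can be said about an order between B10301 and the control for DREB1A.

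OsSAP17 (LOC4346945, chromosome 9) had a log2 signal of 11.00 in B10201 leaves and 7.84 in B10301 leaves, against 7.92 in control Guichao2. All 3 values were well above the floor, so its folds are measured values and not bounds. B10201 leaves had 8.43-fold the signal of the control and 8.90-fold that of B10301, and the log2 difference between B10301 and the control was -0.08. OsSAP17 ranked number 23 by the measure used for DREB1G.

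DREB2A (LOC4324418, chromosome 1), a factor of the branch linked to drought and salt, had a log2 signal of 6.46 in B10201 leaves and 7.03 in B10301 leaves, against 6.20 in control Guichao2. Here B10301 was the highest array. Its signal was 1.78-fold that of the control, and B10201 had 1.20-fold that of the control, both short of a doubling. The log2 difference between B10201 and B10301 was -0.57, the opposite direction to that of the other 3 genes.

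**Figure D1:**
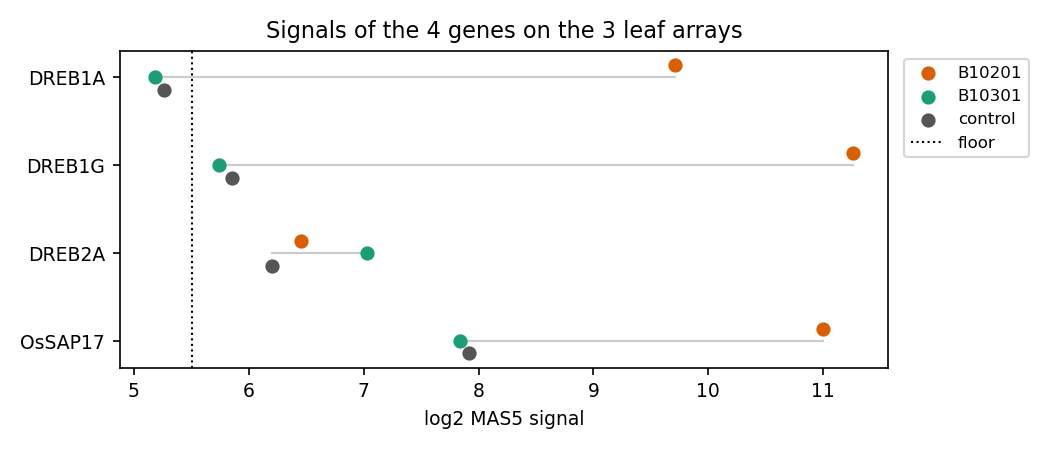
Log2 signal (horizontal axis) of DREB1A, DREB1G, DREB2A and OsSAP17 in B10201, B10301 and control Guichao2, 1 point per array, with the floor at 5.50 as a dotted line. For DREB1A, DREB1G and OsSAP17 the B10201 point stands alone at the right, while for DREB2A the B10301 point, at 7.03, is the highest.

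Differences of this kind were uncommon among all probe sets. Of 26475 probe sets whose mean lay above the floor, 5.21% were at least 2-fold higher in B10201 than in the control, 4.66% at least 2-fold higher in B10301 than in the control, and 3.39% at least 2-fold higher in B10201 than in B10301. Among the 4 genes, 3 were at least 2-fold higher in B10201 than in the control, 0 in B10301 than in the control and 3 in B10201 than in B10301. The genes had been chosen on these contrasts, so the shares are background only. DREB1A, below the floor on both other arrays, passed the filter on low signals through its B10201 value alone. It therefore had to be higher there. In RNA from whole leaf samples, more cells with a transcript and more transcript per cell cannot be told apart.

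**Figure D2:**
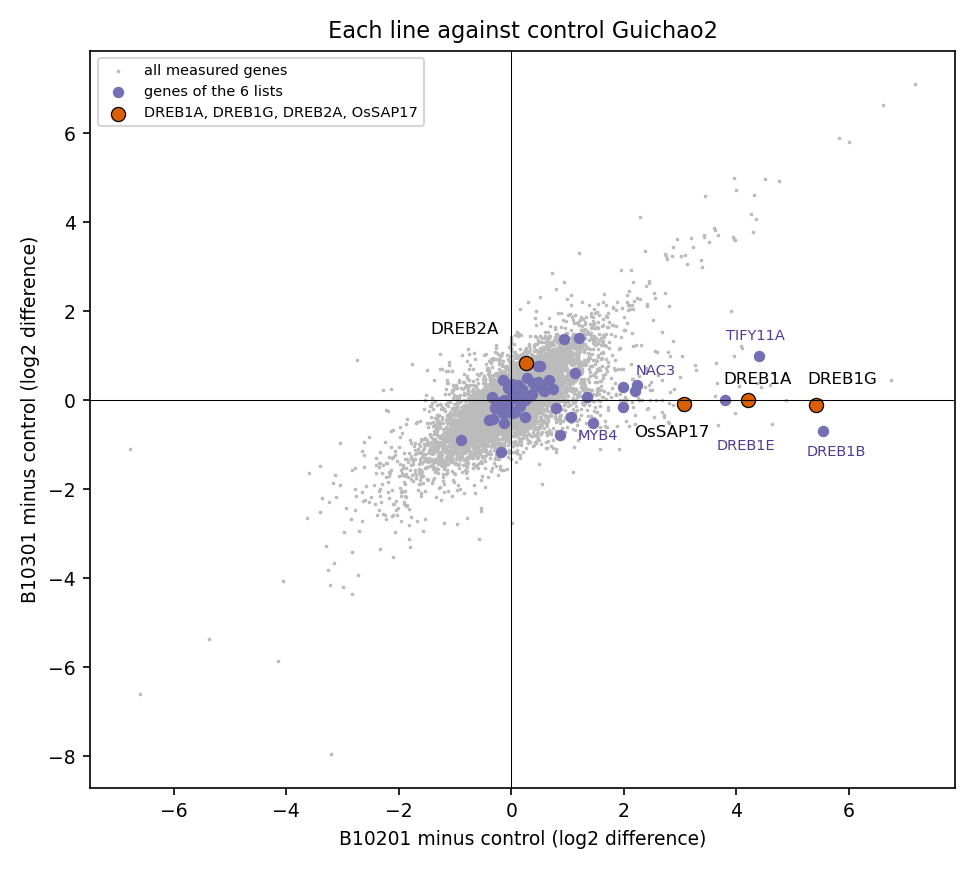
Log2 difference of each line from control Guichao2, with B10201 on the horizontal and B10301 on the vertical axis, for all 14397 measured genes (grey), the genes of the 6 pathway lists (violet) and the 4 genes (orange). Both axes share the control array, so part of the diagonal spread is common to them. DREB1G, DREB1A and OsSAP17 lie far to the right at heights near 0, next to DREB1B and DREB1E, and DREB2A lies within the grey cloud.

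DREB1B and DREB1E, the other DREB1 genes with a mean above the floor, also had their high value in B10201. The gene table holds 10 further DREB1 and DREB2 genes that matched the list, of which 5 had a probe set and 4 were measured. DREB1B (LOC4347618), which stands beside DREB1H and DREB1A on chromosome 9, had a log2 signal of 12.17 in B10201 leaves and 5.95 in B10301 leaves, against 6.63 in control Guichao2. That is 46.4-fold over the control and 74.4-fold over B10301. DREB1E (LOC4336721) had 9.29 in B10201 leaves and, below the floor, 4.83 in B10301 leaves and 3.59 in the control, at least 13.8-fold higher in B10201 than on either. DREB1E passed the filter on low signals through its B10201 value alone, so it had to differ and adds no support.

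The DREB2 genes of the list did not show such a gap. DREB2B (LOC4338484), a factor that in rice is regulated by splicing under stress, had log2 signals of 9.14 in B10201 and 9.15 in B10301, against 9.18 in the control, so the arrays lay within 0.05 of each other. DREB2D (LOC4339084) had 6.25 in B10201 and 5.76 in B10301, against 4.96 in the control, and by its probe set above the floor B10201 exceeded B10301 by a log2 difference of 0.49. DREB1C, on 3 probe sets, had a mean below the floor on each and was not measured; its highest value was 5.95, in B10201.

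Of these 4 measured genes, DREB1B, DREB1E and DREB2B lie inside a displaced stretch, so their B10301 values are those found 1 row above. As deposited, the B10301 entry was 6.53 in the row of DREB1B and 3.84 in that of DREB1E, each still far below the B10201 value. In the row of DREB2B it was 5.23, so the closeness of the lines for DREB2B depends on the move. The B10201 and control columns were not displaced there. In the gene order of chromosome 9, LOC4347617 lies before the DREB1 cluster that holds DREB1A, and its log2 signals spanned 0.05 over the 3 arrays. LOC4347621, on the other side, was below the floor on every array and was not measured. DREB1H had no probe set listed.

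Among the other SAP genes, 2 of 11 measured were at least 2-fold higher in B10201 than on both other arrays, against 1.53% of all genes. SAP1 (LOC4347423), also called ISAP1 and known as a gene induced by cold, salt and wounding in rice, had a log2 signal of 12.38 in B10201 leaves and 10.49 in B10301 leaves, against 10.14 in control Guichao2. SAP11 (LOC4345973) had 8.53 in B10201 and 7.26 in B10301, against 7.18 in the control. B10201 thus had 4.71-fold the control signal for SAP1 and 2.55-fold for SAP11, smaller than the 8.43-fold of OsSAP17. SAP7 came next with a log2 difference of 0.80 between B10201 and the control. On its second probe set with a mean above the floor, B10201 and B10301 were both below the floor. Each line differed there from the control by -2.07, a bound.

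The remaining SAP genes lay close together. Log2 differences between B10201 and B10301 ran from 0.25 for SAP16 to -0.62 for SAP5, and the median over the 11 genes was 0.01, against -0.03 over all genes measured. SAP8 and SAP4, both abundant, differed between B10201 and B10301 by -0.04 and -0.12. For these 8 genes the arrays had no order in common: B10201 was the highest array for SAP16, SAP9 and SAP2 and the lowest for SAP5, SAP6 and SAP15. The other probe set of SAP5 did not share that order, with 6.38 in B10201 and 6.35 in B10301, against 5.52 in the control.

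**Figure D3:**
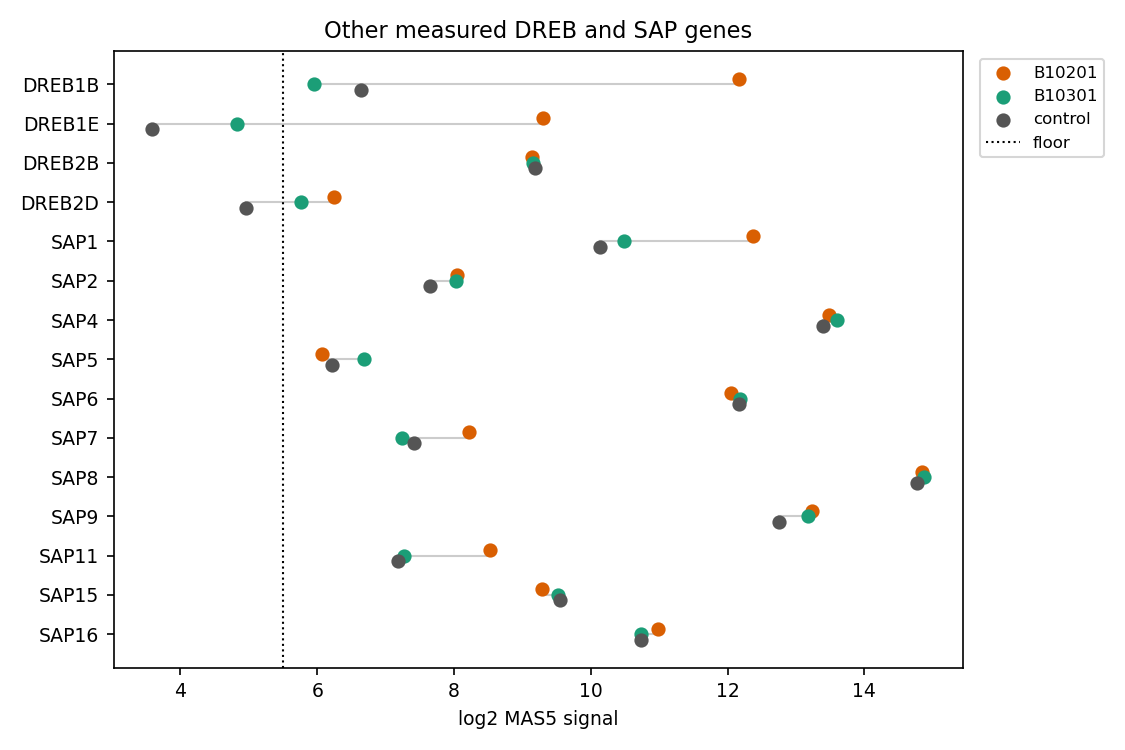
Log2 signal (horizontal axis) of the other measured DREB and SAP genes in B10201, B10301 and control Guichao2, 1 point per array and 1 probe set per gene, with the floor at 5.50 dotted. DREB1B, DREB1E, SAP1 and SAP11 have a B10201 point set apart to the right, and DREB2B has its 3 points at 9.14 to 9.18.

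Of genes known to act upstream of DREB1 genes or in the same cold and stress signalling, 4 of 19 measured were at least 2-fold higher in B10201 than on both other arrays, against 1.53% of all genes. TIFY11A (LOC4331832), a JAZ repressor of jasmonate signalling, had log2 signals of 10.97 in B10201 and 7.56 in B10301, against 6.57 in the control. MYB4 (LOC4336407), a MYB factor that confers chilling tolerance when overproduced in Arabidopsis, had 10.22 and 8.08, against 8.23. MYB2 (LOC4332651) had 9.17 and 7.21, against 7.72, and MAPK5 (LOC4332475), a stress-activated MAP kinase, had 11.46 and 10.01, against 10.39. For each of these 4 genes B10201 was the high array; B10301 was below the control for MYB4, MYB2 and MAPK5 and above it for TIFY11A. TIFY11A lies inside a displaced stretch, with 4.89 in its row of the B10301 column as deposited. A second probe set of MYB4 put B10201 above the control by a log2 value of 0.48 and B10301, itself below the floor there, under the control at -1.29.

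The other regulators on that list were less than 2-fold apart between the lines. MYBS3, which represses DREB1 genes in rice, had 12.53 in B10201 and 12.32 in B10301, against 11.86 in the control, inside a displaced stretch with 6.82 in its row as deposited. Its other probe set had 10.29 and 10.20, against 10.40. The SUMO ligase SIZ1 had 10.73 and 10.80, against 10.94, and the kinases SAPK8, SAPK9 and SAPK10 differed between the lines by log2 values of -0.07, -0.10 and -0.11. One of 2 genes listed as MAPK6 (LOC4339633, also named MPK7) was higher in both lines, by 0.93 in B10201 and 1.38 in B10301. ICE1 and ICE2, activators of DREB1 genes, matched no gene of the array annotation under the names used here and were not analysed.

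Proteins that protect cells in cold or drought, several of them known to be encoded by DREB targets, formed the next list. Of 12 measured, 1 was at least 2-fold higher in B10201 than on both other arrays, against 1.53% of all genes: TPP1 (LOC4330221), a trehalose-6-phosphate phosphatase induced by cold in rice, with log2 signals of 13.05 in B10201 and 11.37 in B10301, against 11.06 in the control. TPP1 also lies inside a displaced stretch, and the entry deposited in its row for B10301 was 13.45. The value therefore depends on the move for the comparison of the lines, but not for B10201 against the control, at 3.97-fold.

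The dehydrin LIP9, listed also as DHN1 and DIP1 and known as a DREB1A target in rice, had 9.81 in B10201 and 10.22 in B10301, against 10.15 in the control. RAB16C had 8.63 and 8.54, against 8.96, and RAB21 had 5.85 and 5.84, against 6.74. All 3 dehydrins thus had a lower signal than the control in B10201, each by less than 2-fold. B10301, without the high DREB1 signals, was also below the control for RAB16C and RAB21, and slightly above it for LIP9. SALT, a mannose-binding lectin induced by salt, was instead higher in both lines, by 1.20 in B10201 and 1.39 in B10301. P5CS2, an enzyme of proline synthesis, had a log2 difference from the control of -0.18 in B10201 and -1.17 in B10301, but its other probe set above the floor had -0.29 and 0.02. The list's median log2 difference between B10201 and B10301 was -0.02. Against the control, 7 of the 12 genes were higher and 5 lower in B10201, counting differences of any size.

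Among 10 other stress transcription factors, 1 was at least 2-fold higher in B10201 than on both other arrays, against 1.53% of all genes. NAC3 (LOC4342753), a NAC factor, had 12.13 in B10201 and 10.13 in B10301, against 9.93 in the control. BHLH148 (LOC4334060), a factor that interacts with JAZ proteins in rice, had 11.88 and 10.24, against 11.01, so it was 3.11-fold higher in B10201 than in B10301 but 1.82-fold higher than in the control. Both lie inside a displaced stretch, with 7.90 and 11.08 in their rows of the B10301 column as deposited. The well-known drought factors SNAC2 and BZIP23 differed between the lines by 0.27 and 0.36. NAC5 had 10.71 in B10201 and 10.09 in B10301, against 10.46 in the control. Another measured probe set of NAC5, which may cross-hybridise, had 7.12 and 6.11, against 5.74. By that probe set B10201 was at least 2-fold above both other arrays.

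DREB1 genes are under circadian control in several plants, so clock genes were set beside them. Of 8 measured, 0 were at least 2-fold higher in B10201 than on both other arrays and 0 at least 2-fold lower (1.53% and 0.549% of all genes). LHY (LOC4344703), a morning gene, had 8.26 in B10201 and 7.73 in B10301, against 7.12 in the control, the widest difference of the list between B10201 and the control at 1.14. The evening genes PRR1 and GI had 11.88 and 14.96 in B10201 and 11.92 and 15.03 in B10301, against 11.74 and 14.77 in the control. Sampling times are not given in the sources used here, and their part in the DREB1 values was not tested.

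Over the 6 lists, 64 genes were measured, and 10 of them (15.6%) were at least 2-fold higher in B10201 than on both other arrays, beside 220 of all 14397 genes (1.53%). The lists were written with earlier results of these data known, so the share is a description. Of these 10 genes, 5 lie inside a displaced stretch. DREB1E, counted here and in the comparisons below, had to differ because it passed the filter through its B10201 value alone. Against the control, 12 of the 64 were at least 2-fold higher and 0 lower in B10201, where 4.62% of all genes were higher and 4.49% lower. With arrays centred on their medians, the balance over all probe sets was less even, 1054 higher and 1997 lower in B10201 against 1379 higher and 1444 lower without centring. In B10301, 2 were higher and 1 lower, where 3.84% of all genes were higher and 4.44% lower. Between B10201 and B10301, 11 were higher and 0 lower, where 2.8% of all genes were higher and 1.35% lower. The limma fit given next takes its error only from the gap between B10201 and B10301. A gene high in B10201 alone could therefore hardly pass it, so it does not test that pattern. When both lines were set together against the control in a limma fit, 0 of the 64 genes passed Benjamini-Hochberg adjustment, with a lowest adjusted p of 0.207, and at an unadjusted p under 0.05 there were 8 higher and 1 lower. Over all probe sets the fit called 0 (0%), with 4520 (17.1%) at an unadjusted p under 0.05.

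**Figure D4:**
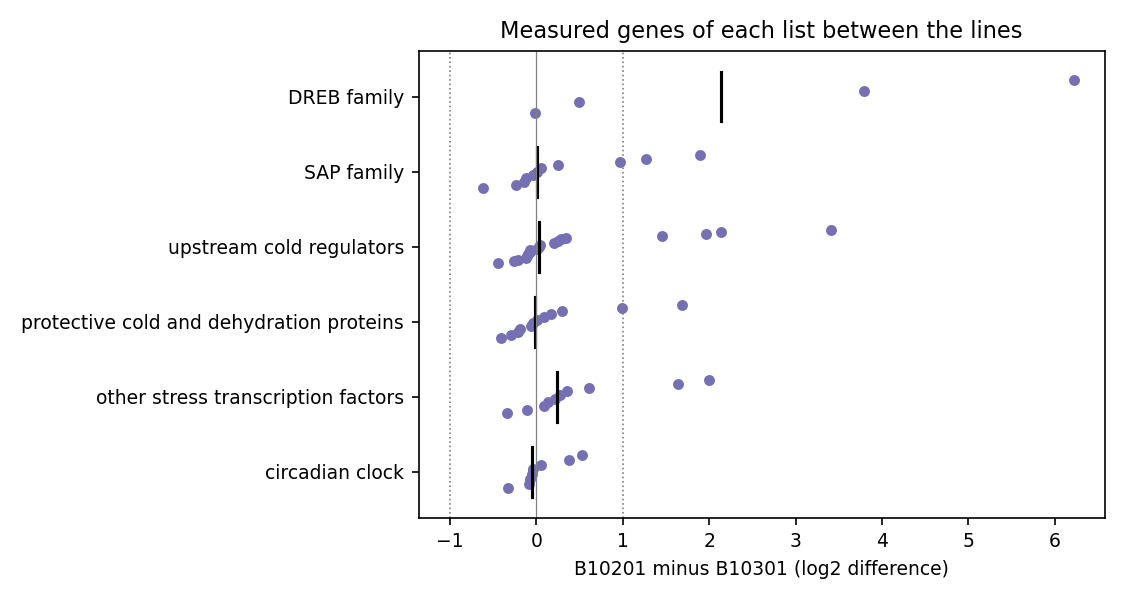
Log2 difference between B10201 and B10301 (horizontal axis) for every measured gene of the 6 lists, 1 point per gene, with each list's median as a black bar and dotted lines at 2-fold. The DREB family is the list whose median, 2.14 over 4 genes, is away from 0. That median takes in DREB1E, which passed the filter through its B10201 value alone and had to differ. The other points of the list are DREB1B at 6.22, DREB2D at 0.49 and DREB2B at -0.02. In 4 of the other lists between 1 and 4 genes lie beyond the right dotted line.

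Genes with a pattern like that of DREB1A and DREB1G were sought among 13205 genes whose B10301 and control signals, with the floor applied, were within 1 log2 unit, ranked by the excess of B10201 over the higher of these. The excess was at least 2-fold for 206 of them. After DREB1B, the gene nearest to the top with a readable name was JAZ13 (LOC4348531), a jasmonate repressor, with 11.64 in B10201 and 7.38 in B10301, against 7.67 in the control. The remaining genes of the first 10 carry only a locus number. LOC4328727 led with 12.26 in B10201 and 5.96 in B10301, against 1.16 in the control; it lies inside a displaced stretch, with 1.54 in its row of the B10301 column as deposited. LOC4325662, measured by a probe set that may cross-hybridise, had 13.39 and 7.89, against 7.89. The other probe set of LOC4325662 had 7.88 and 7.51, against 8.12, and so did not share the high B10201 value.

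Next came LOC4326920, LOC4325751, LOC4345815, LOC4330793, LOC4352472 and LOC4349792, loci with B10201 signals from 9.87 to 10.92 and an excess of 3.98 to 4.88. All but LOC4330793 had a B10301 or control signal below the floor. LOC4326920, at 4.88, had both below it, so it passed the filter through its B10201 value alone and had to differ. LOC4345815 was measured by a probe set that may cross-hybridise, and its other probe set, not measured, had 1.93 in B10201. Of the loci named here, LOC4352472 lies inside a displaced stretch, with 8.71 in its row as deposited. By the annotation's own symbols the first was CPK13, a calcium-dependent kinase, at an excess of 0.45, since most genes there are listed by locus. With gene-table synonyms admitted, a step added after the values were seen, the ranking went on after JAZ13 with DREB1E and TIFY11A, described above, and then CML31. CML31 (LOC4325408), a calmodulin-like protein, had 10.25 in B10201 and 6.99 in B10301, against 7.47 in the control. ABA8OX1 (LOC9269675), an abscisic acid 8'-hydroxylase, had 11.74 and 8.63, against 9.02.

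CML15 (LOC4338633) had 10.60 in B10201 and 8.13 in B10301, against 7.33 in the control, and CML16 (LOC4325693) had 13.10 and 11.32, against 11.58. WRKY71 (LOC4328512), a WRKY factor, had 12.73 and 10.01, against 10.54. NAC3, MYB4, SAP1 and TPP1, described above, were also among the first 15 of that ranking, as were BC1L6 and OsC3H33. A likeness over 3 arrays rests on few points and says only that the same array was high.

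**Figure D5:**
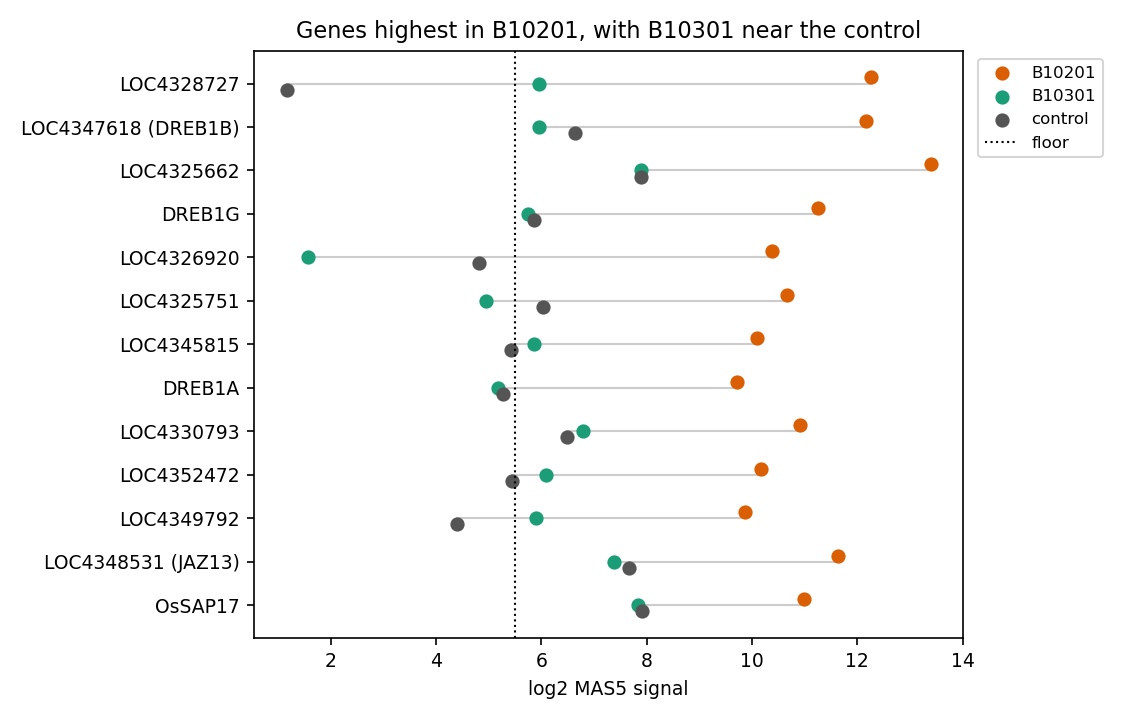
Log2 signal (horizontal axis) of DREB1G, DREB1A, OsSAP17 and the first 10 other genes ranked by the excess of B10201, among genes with B10301 near the control, 1 point per array, with the floor at 5.50 dotted. In each row the B10201 point lies at 9.71 or more, and for several loci a point of B10301 or the control lies left of the floor.

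The genes nearest to DREB2A were sought only among 69 genes with an annotation symbol, not among all genes. By distance between centred log2 signals, the 5 nearest were IRX14, SPO11-3, SNAT1, GLYI-11 and MHZ4. IRX14, of xylan synthesis, had 11.08 in B10201 and 11.48 in B10301, against 10.83 in the control, at a distance of 0.14. All 5 had their highest signal in B10301, like DREB2A, and all 5 differed from the control by less than 2-fold in both lines. Both traits follow largely from the choice by distance to DREB2A and add no support. SNAT1 and GLYI-11 lie inside a displaced stretch.

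The arrays were similar in overall signal, with 50.8% of probe sets above the floor in B10201 and 50.5% in B10301, against 48.7% in the control. Leaf markers were strong: the 5 measured, among them RBCS and RCA of carbon fixation, had log2 signals of 14.10 to 15.57 in B10201 and 14.81 to 15.93 in B10301, against 14.46 to 15.57 in the control. The light-harvesting gene CAB2R was lower in B10201, at 14.10, than in B10301, at 15.33, and the control, at 15.57. CAB2R lies inside a displaced stretch, with 14.38 in its row as deposited, so its gap between the lines depends on the move. Its gap to the control, 2.75-fold lower in B10201, does not. Its other probe set, which may cross-hybridise, had 12.44 in B10201 and 14.38 in B10301, against 14.73 in the control. That probe set lies inside the stretch too, with 8.45 in its row as deposited. Of genes written as markers of other tissues, 3 of 9 seed storage genes, 5 of 6 root genes and 4 of 14 floral genes were measured. Of these 12 genes 0 were at least 2-fold above both other arrays in B10201, and MADS4 was lower, at 4.70 in B10201 and 6.57 in B10301, against 6.74 in the control. The linear signals of all probe sets on these lists summed to 6376 in B10201 and 7775 in B10301, against 6897 in the control, for seed storage genes. For root genes the sums were 8705 and 9427, against 11060, and for floral genes 2482 and 2637, against 3351. The lists were matched by name, and the root list takes in genes, such as RPT1, that may not be confined to roots. The highest signals of the seed storage list came from LOC4337720, matched only by the names GLB and GLB1. It had 12.17 in B10201 and 12.56 in B10301, against 12.37 in the control, and may not be a seed storage gene. The seed storage sums rest largely on it and may not reflect seed storage transcripts. The part of tissue makeup in the DREB1 and OsSAP17 values was not tested.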

How the data were processed

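Biotin-labelled RNA was hybridised to 1 array per sample. Per the submitters' processing notes the authors used MAS5; the deposited values are log2 signals, taken without further normalization. A MAS5 version and detection calls are not given in the sources used here. In the B10301 column, 2 stretches of 6717 and 988 rows hold values 1 row below their probe set; they were moved back by 1 row. Against the mean of B10201 and the control, their correlation was 0.397 and 0.051 as deposited, and 0.939 and 0.823 once moved; it was 0.918 elsewhere.

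Signals below the median (5.50) were set to it, and probe sets with a mean above it were kept, 26475 of 57194. Genes came from the platform annotation and the gene table of assembly ASM3414082v1, used for names and gene order only: 22436 probe sets had 1 gene, 95 several and 34663 none. A gene was represented by its probe set with the highest mean. Differences of at least 2-fold were counted without a test. A limma 3.58.1 fit (R 4.3.3, intensity trend, 1 residual degree of freedom, two-sided, Benjamini-Hochberg threshold 0.05) set both lines against the control and was checked on simulated data. The control is a single array, so the error of the fit comes only from the difference between B10201 and B10301. Its p-values rest on that gap between distinct lines, and nothing says that the samples are independent plantings. Python 3.11.15, numpy 2.4.6, pandas 2.3.3 and matplotlib 3.10.9 did the rest.

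Members, lists and the rule for named genes were chosen with earlier results of these data known. The rule named every list gene at least 2-fold apart in any comparison, the first 10 genes most like DREB1A and DREB1G, the 5 most like DREB2A and the neighbours of DREB1A.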

Additional observations from a re-analysis of the deposited data

Results flagged for a closer look

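The lines lay on opposite sides of the control, and at least 2-fold apart, for a few genes described above. With 1 array per line these differences were not tested. By the probe set used for each gene, B10301 lay less than 2-fold from the control. The second probe set of MYB4, with B10301 below the floor, instead had -1.29. The log2 difference between B10201 and B10301 was 5.52 for DREB1G and 3.15 for OsSAP17. For these genes B10301 differed from the control by only -0.11 and -0.08, too little to place it on either side. The log2 difference between the lines was 6.22 for DREB1B, 2.14 for MYB4, 1.97 for MYB2, 1.64 for BHLH148 and 1.45 for MAPK5.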

How the results depend on the processing

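Over 9 alternatives, 97 of 99 log2 differences of DREB1A, DREB1G, DREB2A and OsSAP17 moved by less than 1.5-fold. Averaging all probe sets of a gene cannot move genes with 1 probe set, and without it the count was 85 of 87. DREB1G, DREB2A and OsSAP17 also could not move with the stretches left out or as deposited. The same held without a floor, at the 25th percentile floor and with probe sets that may cross-hybridise left out. Much of that count was therefore fixed in advance. The values that moved further were those of OsSAP17 with a floor at the 75th percentile, 2.40 for B10201 against B10301 and 2.40 against the control. DREB1A, DREB1G and DREB2A were not measured there, their means being below that floor. Over 12 alternatives, 0 of all 206 compared values reversed, but only log2 differences of at least 1 could be called reversed, and counts could not. Counts of probe sets at least 2-fold apart moved with the floor: B10201 against the control, B10301 against the control and B10201 against B10301 gave 21003, 21053 and 19734 without a floor, 12383, 12418 and 11284 at the 25th percentile, and 775, 676 and 224 at the 75th. At 3-fold they gave 903, 712 and 390. As deposited, B10301 gave 5528 against the control and B10201 gave 4556 against B10301. Centred arrays turned the split to 1054 higher and 1997 lower for B10201 against the control and 924 and 1869 for B10301, against 1379 and 1444 and 1234 and 1401 without centring; the array medians were 5.56 in B10201 and 5.54 in B10301, against 5.41 in the control. The limma fit called 128 probe sets without a floor (91 higher, 37 lower) and 52 with robust moderation (43 higher, 9 lower), against 0 otherwise.

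The counts of list genes with B10201 at least 2-fold above both other arrays were compared under settings chosen after seeing the data. With the displaced stretches left out they were 0 of 1 for the DREB family, 0 of 10 for protective proteins and 0 of 8 for other stress factors. The count over all genes was then 179 of 11900. As deposited, the count for protective proteins was also 0, of 12, beside 231 of 14497 over all genes. At the 75th percentile floor they were 0 of 1 for the DREB family, 1 of 7 for SAP genes and 2 of 17 for upstream regulators, and at 3-fold 1 for SAP genes and 2 for upstream regulators. Over all genes the count was 751 of 17905 without a floor and 97 of 14397 at 3-fold. It was 532 of 16796 at the 25th percentile floor and 87 of 10089 at the 75th. No paired analysis was possible because each group holds 1 array. Without detection calls, signals near the floor cannot be told from background.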
